A study of Homo sapiens with 3 samples.

Results

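Translation initiation factors bring the ribosome, the initiator tRNA and the messenger RNA together at the start codon, and their genes carry symbols that start with EIF and a digit. Every gene symbol of that form was taken, which includes the EIF2AK kinases and the EIF4EBP genes, and symbols that join 2 genes by a hyphen were left out. The rule gave 55 genes of 16793 gene symbols. Of these, 50 had a mean of at least 1 FPKM (fragments per length of transcript and size of library) over the libraries, among 11512 genes in all. The cells were H446, an established line of human small cell lung cancer grown in medium with serum. They received vehicle, 5 µM 3-bromoascochlorin (BAS, a brominated form of the fungal product ascochlorin) or 10 µM BAS for 48 h. The series title names antitumor effects and the MAPK pathway as the subject. Each of the 3 groups is 1 library, so nothing here could be checked against replicates, and no statistical test was made.

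Where 3 levels follow each other, the first is vehicle, the second 5 µM and the last 10 µM. A difference is that of log2(FPKM + 1), which understates the change of low genes (these are bulk libraries, in which fewer cells with an RNA and less of it per cell cannot be told apart), while a fold is the plain ratio of FPKM. The limit of size for a call is 2-fold on the log2 scale, and a 1.5-fold limit is given beside it. The read depth is unknown, because FPKM values hold no counts. The values of all symbols summed to 487923 to 507342 FPKM per library, and 8 of the 9 listed small cell lung cancer and neuroendocrine markers found in the files, NEUROD1 and INSM1 among them, were at 1 FPKM or more in each library. POU2F3 was near 0, at 0.01 to 0.07 FPKM. Of foreign-cell markers, 1 of 4 leukocyte genes (CD68), 3 of 5 fibroblast genes (collagens, with DCN and PDGFRA under 1 FPKM) and 1 of 3 endothelial genes (CDH5) were at 1 FPKM or more in each library. The summed leukocyte markers were at 4.61, 7.31 and 9.66 FPKM, the fibroblast markers at 751, 933 and 924 FPKM and the endothelial markers at 58.1, 56.3 and 52.5 FPKM, and their part in the results was not tested.

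In cap-dependent initiation, eIF4E binds the cap of the mRNA, the scaffold eIF4G joins it to the helicase eIF4A, and eIF3 links this assembly, called eIF4F, to the small ribosomal subunit. eIF2 brings the initiator tRNA, and eIF2B recharges eIF2 with GTP after each round. Stress kinases phosphorylate eIF2, which then blocks eIF2B, lowers general initiation and favours mRNAs such as that of the transcription factor ATF4. The EIF4EBP proteins hold eIF4E away from eIF4G until the kinase mTORC1 phosphorylates them. All values here are RNA levels and do not measure phosphorylation or protein synthesis.

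The genes of the eIF4 cap group lay below vehicle together, the eIF4A helicase genes furthest at 10 µM. EIF4EBP1, which encodes the best known eIF4E inhibitor, lay above vehicle. EIF2AK3, which encodes the eIF2 kinase PERK of the endoplasmic reticulum, was also above vehicle, but inside the 1.5-fold limit on the log2(FPKM + 1) scale. No initiation factor gene reached the 2-fold limit at either dose, where 0.539% of all genes were called higher and 0.208% lower at 5 µM, and 1.31% higher and 0.643% lower at 10 µM. At the 1.5-fold limit, EIF4EBP1 and EIF3CL were higher at 5 µM (2 of 50, against 3.01% of all genes) and 0 were lower (against 1.6%). At 10 µM the same symbols, EIF4EBP1 and EIF3CL, were higher (2 of 50, against 6.04%), and EIF4A2, EIF4A1 and EIF3A were lower (3 of 50, against 3.44%). These shares are close to those of all genes. At a 1.25-fold limit, chosen after the values were seen, 4 were higher at 5 µM (EIF2AK3, EIF2D, EIF3CL and EIF4EBP1, against 12.3% of all genes) and 4 lower (EIF3A, EIF4A2, EIF4G3 and EIF5A, against 8.9%). At 10 µM, 5 were higher at that limit, EIF6 being added, against 18.8%, and 7 lower, against 11.4%. The 7 were EIF4A2, EIF4A1, EIF3A, EIF4B, EIF4G3, EIF5A and EIF4EBP2. These counts depend on the scaling, since median-ratio scaling gave 3 higher and 14 lower at 10 µM, without EIF2D and EIF6 among the higher. With GC and length trends removed, EIF2D, EIF6 and EIF4EBP2 were inside the limit at 10 µM. The members' median difference was 0.02 at 5 µM and −0.10 at 10 µM, and that of all genes 0.02 and 0.05. The members' median at 10 µM was −0.15 with median-ratio scaling, −0.03 with GC and length trends removed, and their mean was −0.05. Below vehicle were 23 of the 50 at 5 µM, against 46.6% of all genes, and 27 were above, against 53.2%. At 10 µM the 50 divided into 27 below, against 43.3%, and 23 above, against 56.5%. The plot of differences by role shows every measured member.

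**Figure D1:**
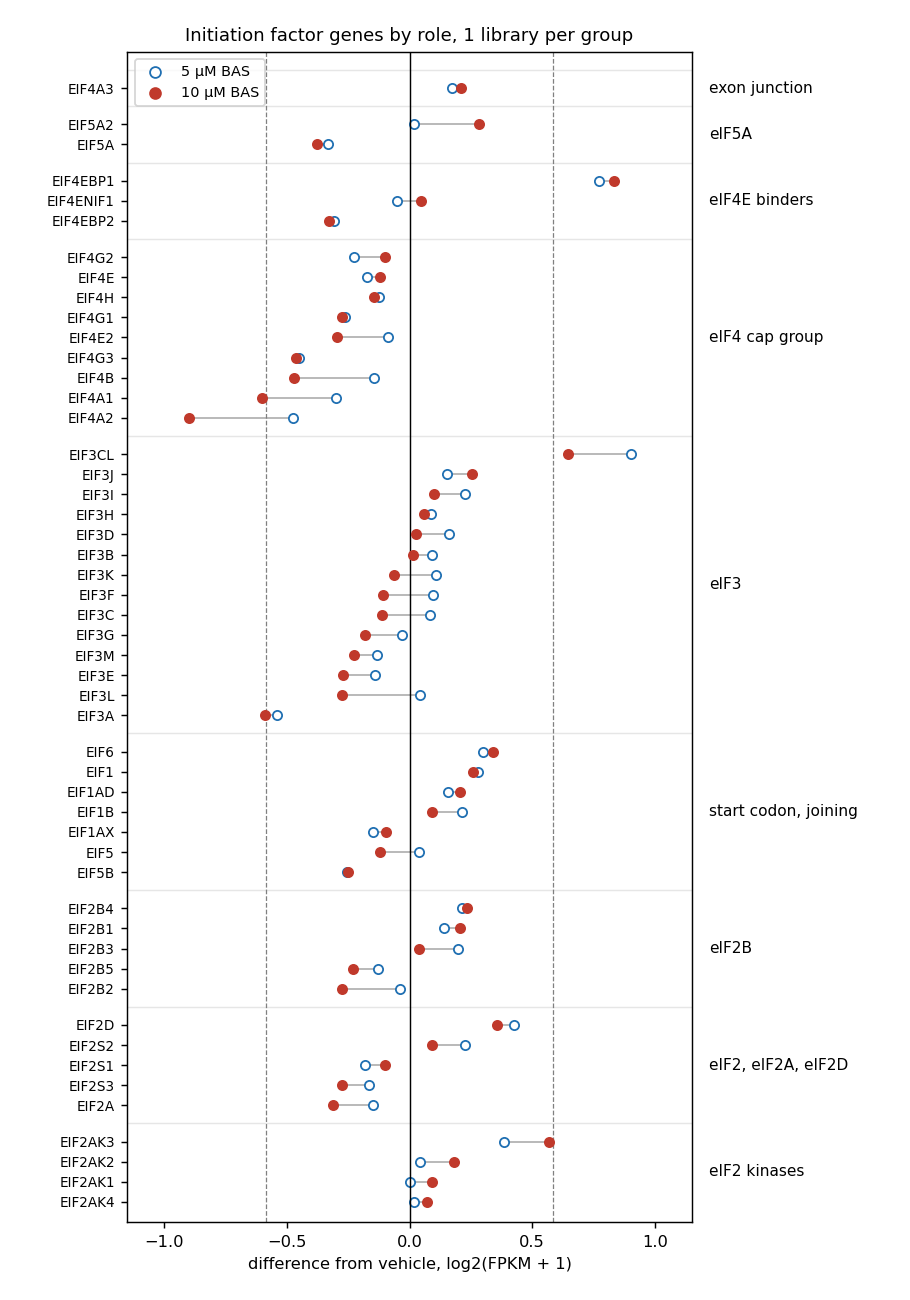
Differences of log2(FPKM + 1) from vehicle for the 50 measured initiation factor genes, grouped by role, at 5 µM (open blue) and 10 µM BAS (filled red), with dashed lines at the 1.5-fold limit and 1 library per group. The 9 genes of the eIF4 cap group lie left of 0 at both doses, and EIF4EBP1 and EIF3CL lie past the right dashed line.

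The initiation factor genes together held 1.42% of the vehicle library's summed FPKM, then 1.37% and 1.32% of those of the treated libraries. The most abundant member with vehicle was EIF4A1 at 647 FPKM, followed by EIF5A (633), EIF1 (564), EIF3C (429) and EIF4G2 (362). EIF4E was far lower at 11.5 FPKM. There is no spread over samples by which neighbours in this order could be told apart.

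The factors that assemble on the cap are described first. All 9 measured genes of this group were below vehicle at both doses, against 46.6% of all genes at 5 µM and 43.3% at 10 µM. Their median difference was −0.23 at 5 µM and −0.29 at 10 µM, and that of all genes 0.02 and 0.05. The count for this group was added after the values were seen. EIF4A2, a paralogue of the helicase EIF4A1 that unwinds the 5′ end of mRNAs, was at 153, 110 and 81.7 FPKM. It had the lowest difference of the initiation factor genes at 10 µM, at 0.53 times vehicle and 0.72 times at 5 µM, and held place 104 from the lowest of the 11512 genes at 10 µM. EIF4A1 was at 647, 526 and 427 FPKM, or 0.81 and 0.66 times vehicle. Both helicase genes were thus lower at 10 µM than at 5 µM, and their summed level was 801, 636 and 508 FPKM.

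The cofactors and scaffolds of the helicase lay on the same side. EIF4B, which stimulates the helicase, was at 186, 168 and 134 FPKM, though 30.6% of its 50-base sequences occur in other genes. EIF4H, a related cofactor, was nearer to vehicle at 126, 115 and 114 FPKM. Of the scaffold genes, EIF4G3 was at 29.6, 21.4 and 21.2 FPKM and EIF4G1 at 147, 122 and 121 FPKM, with hardly any difference between the doses. EIF4G2 (also called DAP5), a relative that lacks the eIF4E-binding part, was at 362, 309 and 338 FPKM.

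The genes of the cap-binding proteins were also below vehicle. EIF4E was at 11.5, 10.1 and 10.5 FPKM, and EIF4E2, which represses translation by competing for caps, at 56.6, 53.1 and 45.9 FPKM. EIF4E3 and EIF4E1B were under 1 FPKM in each library. When trends across genes with GC content and with transcript length were removed, EIF4E lay above vehicle by 0.05 at 5 µM and 0.06 at 10 µM, and the other 8 stayed below. With median-ratio scaling, a common total and quantile normalization, all 9 were below vehicle at both doses. Without the filter on low values, EIF4E3 was above vehicle at both doses and EIF4E1B at 5 µM.

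**Figure D2:**
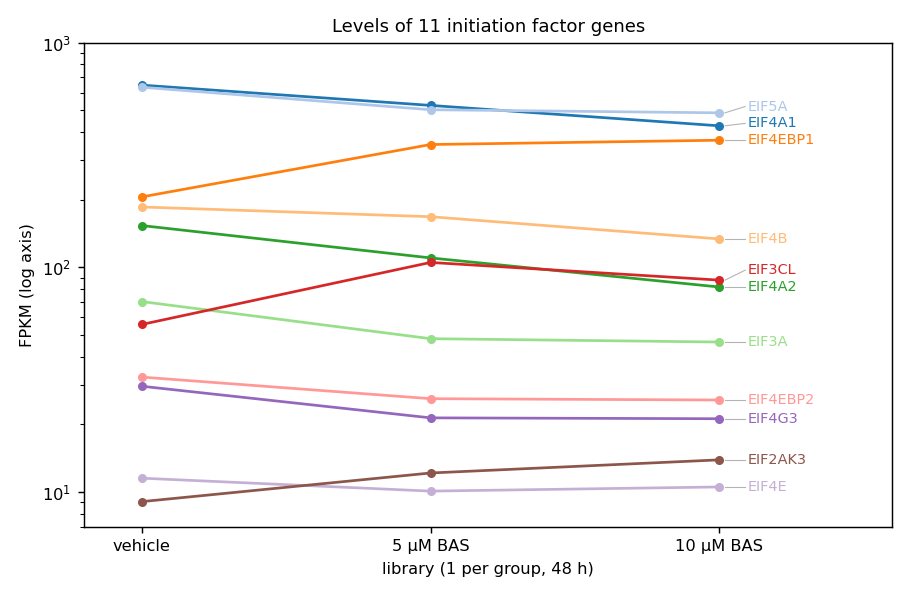
FPKM on a log axis in the vehicle, 5 µM and 10 µM BAS libraries for 11 initiation factor genes, 1 library per group. EIF4EBP1, EIF3CL and EIF2AK3 lie above vehicle at both doses, and the other 8 below.

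The inhibitors of eIF4E lay on opposite sides of vehicle. EIF4EBP1, a gene known to be activated by ATF4 in stressed cells, was at 206, 352 and 368 FPKM, or 1.71-fold and 1.79-fold over vehicle, with a difference of 0.77 and 0.84. Its place from the highest was 144 of 11512 at 5 µM and 258 at 10 µM. EIF4EBP2, its close relative, was at 32.5, 26.02 and 25.7 FPKM, or 0.80 and 0.79 times vehicle, and its difference at 5 µM was −0.31 (−0.20 with GC and length trends removed). EIF4EBP1 therefore exceeded EIF4EBP2 in FPKM, which is per length, by 6.34-fold with vehicle, 13.5-fold at 5 µM and 14.3-fold at 10 µM. The ratio of EIF4EBP1 to its partner EIF4E in FPKM was 17.9, 34.9 and 35.0. With GC and length trends removed, the EIF4EBP1 difference was 0.59 and 0.68.

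EIF4ENIF1, which carries eIF4E into the nucleus and to silenced mRNAs, was at 11.6, 11.1 and 11.98 FPKM. EIF4EBP3 was at 0.37 and 0.28 FPKM and listed at 0 at 10 µM. It shares 71.8% of its 50-base sequences with the read-through gene ANKHD1-EIF4EBP3, which is no member and was at 9.77, 8.67 and 9.99 FPKM, so that its own level is uncertain.

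The regulators around this step, a list of 19 measured mTORC1 and eIF4F regulators, had a median difference of −0.06 at 5 µM and −0.12 at 10 µM. At the 1.5-fold limit 1 of 19 was higher at each dose, near the shares of all genes (3.01% at 5 µM and 6.04% at 10 µM), and 0 were lower (against 1.6% and 3.44%). MKNK2, a kinase that phosphorylates eIF4E, was the one called, at 94.4, 144 and 172 FPKM. Its difference at 5 µM (0.61) was only just past the limit, and other scalings were not examined for it. PDCD4, an inhibitor of the eIF4A helicase, was at 18.5, 22.4 and 24.3 FPKM. PABPC4, a poly(A)-binding protein gene, was at 65.7, 56.7 and 46.8 FPKM, and RPS6KB1, the S6 kinase downstream of mTORC1, at 13.4, 10.5 and 10.1 FPKM.

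The 4 kinases that phosphorylate eIF2 respond to different stresses. EIF2AK3 (PERK), which senses misfolded protein in the endoplasmic reticulum, was at 9.06, 12.2 and 13.9 FPKM, 1.34-fold and 1.53-fold over vehicle. On the log2(FPKM + 1) scale its difference was 0.39 and 0.57, just under the 1.5-fold limit at 10 µM, which it passed with GC and length trends removed (0.60). EIF2AK3 held place 1002 from the highest of the 11512 genes at 5 µM and 765 at 10 µM. EIF2AK2 (PKR), the sensor of double-stranded RNA, was at 9.43, 9.74 and 10.8 FPKM. EIF2AK4 (GCN2), the sensor of uncharged tRNA, was at 12.8, 13.0 and 13.5 FPKM. EIF2AK1 (HRI), which responds to heme lack and mitochondrial stress, was at 84.2, 84.5 and 89.7 FPKM and was the most abundant of the 4 in each library. Thus EIF2AK3 stood further above vehicle than the other kinases, which differed from vehicle by 0.00 to 0.04 at 5 µM and 0.07 to 0.18 at 10 µM. At 5 µM the sign of EIF2AK1, EIF2AK2 and EIF2AK4 depends on the scaling, with EIF2AK1 at −0.02 by median-ratio scaling and at −0.05 after rescaling to a common total or quantile normalization, EIF2AK4 at −0.00 by median-ratio scaling, and EIF2AK2 at −0.01 and EIF2AK4 at −0.03 after rescaling to a common total. With GC and length trends removed, EIF2AK2 was at 0.25 and 0.34. EIF2AK3 held 7.84%, 10.2% and 10.9% of the summed kinase FPKM.

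Of eIF2 itself, which has an α, a β and a γ subunit, the genes lay on both sides. EIF2S1, the α subunit that the kinases phosphorylate, was at 65.5, 57.7 and 61.1 FPKM, EIF2S2 (β) at 111, 130 and 118 FPKM, and EIF2S3 (γ) at 81.0, 72.2 and 66.8 FPKM. EIF2S3B, a near copy of EIF2S3, was at 0 to 0.09 FPKM. EIF2A, a separate protein that can bring initiator tRNA without eIF2, was at 60.8, 54.7 and 48.9 FPKM. EIF2D, which acts in initiation and in ribosome recycling, was at 23.8, 32.4 and 30.8 FPKM, 1.36-fold and 1.29-fold over vehicle. EIF2D had the highest and EIF2A the lowest difference of this group at 10 µM.

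The eIF2B exchange factor, the point on which phosphorylated eIF2 acts, was split by subunit. EIF2B1 (58.0, 64.0 and 67.0 FPKM) and EIF2B4 (35.1, 40.9 and 41.4 FPKM), of the regulatory part, were above vehicle. The EIF2B4 difference at 5 µM was 0.22, and 0.10 with GC and length trends removed. EIF2B2, the other regulatory subunit gene, was at 150, 146 and 124 FPKM, below it. Of the catalytic part, EIF2B5 was at 35.9, 32.8 and 30.4 FPKM and EIF2B3 at 22.1, 25.4 and 22.7 FPKM. The 5 differences lay between −0.28 and 0.23 at 10 µM. There, 0 reached the 1.5-fold limit, against 6.04% of all genes higher and 3.44% lower.

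Beside the EIF symbols, 15 other genes of the eIF2 phosphorylation circuit were measured. Their median difference was −0.01 at 5 µM and 0.01 at 10 µM, with 1 of 15 called higher at the 1.5-fold limit at each dose (against 3.01% and 6.04% of all genes) and 0 lower (against 1.6% and 3.44%). PPP1R15A (GADD34), which guides a phosphatase to eIF2, was the one called, at 18.0, 41.2 and 50.2 FPKM. OMA1, the mitochondrial protease that starts the signal to EIF2AK1, was at 3.55, 2.6 and 2.2 FPKM, and IMPACT, an inhibitor of EIF2AK4, at 4.99, 4.27 and 3.23 FPKM. PPP1CC, a catalytic phosphatase subunit gene, was at 86.9, 66.1 and 64.3 FPKM.

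Of the 7 measured mRNAs with upstream reading frames that eIF2 phosphorylation favours, 4 were called higher at the 1.5-fold limit at 5 µM (against 3.01% of all genes) and 3 at 10 µM (against 6.04%), with 0 lower (against 1.6% and 3.44%). ATF4 was at 234, 354 and 331 FPKM, ATF5 at 42.6, 65.5 and 89.0 FPKM and DDIT3 (CHOP) at 11.99, 41.3 and 51.1 FPKM. PPP1R15A is in this list too. At 5 µM the differences of ATF4 (0.60) and ATF5 (0.61) were only just past the limit, and ATF4 was inside it at 10 µM (0.50). Other scalings were not examined for this list, so the count at 5 µM is uncertain. RNA levels do not show how these mRNAs were translated.

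The multisubunit factor eIF3, which has its own core and peripheral parts, was spread widely around vehicle. Its 14 genes had medians of 0.09 and −0.09. Of them, 4 were below vehicle at the lower dose (against 46.6% of all genes) and 8 at the higher (against 43.3%). EIF3A, the largest subunit and a scaffold of the complex, was at 70.4, 48.1 and 46.5 FPKM, or 0.68 and 0.66 times vehicle, with a difference of −0.54 and −0.59. The next lowest of the group at 10 µM was EIF3L at −0.27, with 182, 187 and 150 FPKM, though 47.3% of its 50-base sequences occur in other genes. EIF3A thus stood apart from the subunits it assembles with, and with GC and length trends removed its difference was −0.44 and −0.51, inside the 1.5-fold limit.

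The other core subunit EIF3B was at 156, 166 and 158 FPKM, and EIF3J, a loosely bound subunit, was at 30.7, 34.2 and 36.8 FPKM. Of the remaining subunits, EIF3E was at 216, 196 and 179 FPKM and EIF3G at 278, 272 and 245 FPKM, both below vehicle. EIF3H was at 183, 194 and 190 FPKM and EIF3I at 206, 242 and 221 FPKM, both above it. Without EIF3CL, the most abundant eIF3 gene, EIF3C, exceeded the least abundant, EIF3J, by 13.97-fold, 13.3-fold and 10.8-fold in FPKM. This range rests on the loosely bound EIF3J and on EIF3C, whose reads can hardly be told from those of EIF3CL.

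EIF3C and EIF3CL are near-identical copies, sharing 96.8% of the 50-base sequences of EIF3C and 98.7% of those of EIF3CL, so that reads of 50 bases can hardly be assigned to either. EIF3CL was listed at 55.7, 105 and 87.7 FPKM and EIF3C at 429, 454 and 397 FPKM. Their sum was 484, 559 and 484 FPKM, so that the level at 10 µM was that of vehicle (1.00-fold), and the share given to EIF3CL was 11.5%, 18.8% and 18.1%. The 1.58-fold to 1.89-fold excess of EIF3CL is uncertain for this reason.

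Factors of start codon selection and subunit joining had medians of 0.16 and 0.09. Above vehicle were 5 of 7 at 5 µM (against 53.2% of all genes) and 4 of 7 at 10 µM (against 56.5%). EIF1, which guards against wrong start codons, was at 564, 684 and 675 FPKM, and its paralogue EIF1B at 39.3, 45.7 and 42.0 FPKM. EIF6, which keeps the large ribosomal subunit from joining too early, was at 119, 147 and 151 FPKM and had the highest difference of the group, 0.30 and 0.34 (0.15 and 0.24 with GC and length trends removed). EIF1AX was at 44.0, 39.6 and 41.1 FPKM, and EIF5, the GTPase activator of eIF2, at 62.5, 64.3 and 57.5 FPKM. EIF5B, the GTPase that joins the subunits, was at 37.9, 31.6 and 31.7 FPKM and had the lowest difference, −0.26 and −0.25 (−0.13 at 5 µM with GC and length trends removed). EIF1AD, named for its likeness to EIF1A, was at 10.4, 11.8 and 12.2 FPKM.

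EIF5A, a hypusine-bearing factor that acts mainly in elongation, was at 633, 503 and 487 FPKM, or 0.79 and 0.77 times vehicle. With GC and length trends removed, its difference at 5 µM was −0.47 in place of −0.33. Its paralogue EIF5A2 was at 2.98, 3.03 and 3.85 FPKM (a difference of 0.02 and 0.29, and of 0.19 and 0.40 with those trends removed), and EIF5AL1, a copy of EIF5A, was under 1 FPKM. EIF5A shares 31.7% of its 50-base sequences with other genes. EIF4A3, the core helicase of the exon junction complex rather than an initiation factor, was at 101, 115 and 117 FPKM, on the opposite side of vehicle from EIF4A1 and EIF4A2.

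For the later steps, 16 elongation, termination and recycling factor genes had a median difference of 0.04 at 5 µM and −0.09 at 10 µM. At the 1.5-fold limit 0 were higher (against 3.01% of all genes at 5 µM and 6.04% at 10 µM) and 0 lower (against 1.6% and 3.44%). EEF1A1, which delivers tRNAs to the ribosome, was at 3158, 3353 and 2692 FPKM, and EEF1A2, its tissue-restricted paralogue, at 66.7, 81.5 and 84.2 FPKM. MCTS1, a recycling factor gene, was at 11.9, 10.7 and 9.52 FPKM, and EEF1E1 at 25.5, 29.2 and 28.6 FPKM. The differences of the 16 lay between −0.28 and 0.29 at 5 µM and between −0.29 and 0.33 at 10 µM. Their medians were close to those of the initiation factor genes, 0.02 and −0.10.

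The promoters of EIF4A1 and EIF4A2 are shown because these paralogues on different chromosomes were lower together. The windows are the 250 bases before the RefSeq start (GRCh38.p14), EIF4A1 at chr17:7572575-7572824 and EIF4A2 at chr3:186783327-186783576, both on the plus strand. Capitals mark TATAA, searched on the transcribed strand from 45 to 16 bases before the start.
EIF4A1: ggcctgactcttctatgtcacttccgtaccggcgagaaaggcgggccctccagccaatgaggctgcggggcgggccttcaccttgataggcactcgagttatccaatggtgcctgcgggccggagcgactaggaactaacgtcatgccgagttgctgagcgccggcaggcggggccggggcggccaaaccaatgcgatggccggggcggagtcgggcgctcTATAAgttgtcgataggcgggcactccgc
EIF4A2: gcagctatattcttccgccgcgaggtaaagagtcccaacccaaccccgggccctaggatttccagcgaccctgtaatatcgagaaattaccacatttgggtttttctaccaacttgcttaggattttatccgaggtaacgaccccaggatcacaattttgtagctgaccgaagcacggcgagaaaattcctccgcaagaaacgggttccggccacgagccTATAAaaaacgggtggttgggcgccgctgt
TATAA begins 29 bases before the start of EIF4A1 and 30 bases before that of EIF4A2. RefSeq windows were found for 41 of the 50 measured members, and 4 of them (EIF1, EIF4A1, EIF4A2 and EIF4B) hold TATAA there, against 3.63% of the 9180 measured genes with a window. EIF1 was above vehicle and the other 3 below, and the direction over all measured genes with TATAA was not examined. TATAA was looked for after the values were seen. TGATGNAA, the element bound by ATF4 with C/EBP proteins, was searched on both strands of the whole 300-base window and found in 0 of the 41, against 2.65% of the 9180 genes. EIF4EBP1 is among the members without a window.

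EIF4A1 lies next to SENP3, and RefSeq lists a read-through gene, SENP3-EIF4A1, across both. SENP3, a SUMO protease gene, was at 186, 121 and 61.6 FPKM, or 0.65 and 0.33 times vehicle, and so was further below vehicle than EIF4A1. CD68, the next protein-coding gene on the other side, was at 2.85, 6.05 and 7.34 FPKM, above vehicle. All 50-base sequences of EIF4A1 (100%) also occur in other annotated transcripts, 91.7% of them in the gene AC016876.2, so that the level of EIF4A1 depends on how shared reads were counted. EIF4A2 shares 5.83% of its 50-base sequences.

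**Figure D3:**
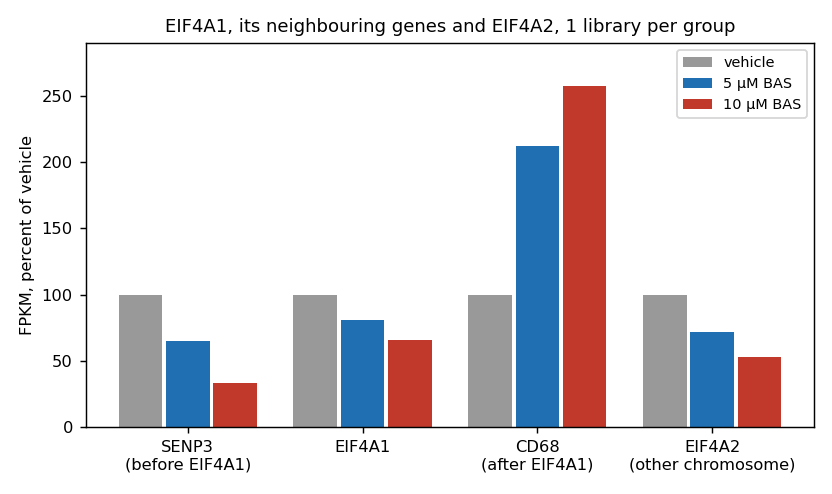
FPKM as percent of the vehicle library for SENP3, EIF4A1 and CD68, which are neighbours in this order, and for EIF4A2, with 1 library per group. SENP3, EIF4A1 and EIF4A2 are below vehicle at both doses, and CD68 is above.

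EIF4A1 and EIF4A2 also share that snoRNA genes lie within their bounds in the RefSeq table, 3 in EIF4A1 and 5 in EIF4A2. The members EIF2AK4, EIF3A, EIF4G1, EIF4G2 and EIF5 hold 1 or 2 such genes. The 7 members with a snoRNA gene had median differences of −0.26 at 5 µM and −0.28 at 10 µM, and 5 and 6 of them were below vehicle. The 43 others had medians of 0.04 and 0.02, with 18 and 21 below. Over all genes, 388 with a snoRNA gene had medians of −0.07 and −0.06, with 231 and 223 of them below vehicle. The 10659 without had medians of 0.02 and 0.05, with 4908 and 4546 below. Of the 7, EIF4A1, EIF4A2, EIF4G1 and EIF4G2 belong to the cap group, whose measured genes were all below vehicle. EIF3A was the lowest eIF3 gene. The split therefore restates those values in part, and it was made after they were seen. Strand was not used to define these hosts.

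The doses differed little from each other. Between 10 µM and 5 µM, 0 members reached the 1.5-fold limit in either direction, against 0.434% of all genes higher and 0.408% lower. None reached 2-fold (0 of 50), against 0.0434% of all genes higher and 0.0434% lower. At the 1.25-fold limit 0 were higher, against 3.82%, and 2 lower (EIF4A2 and EIF4B), against 2.85%. The members' median difference was −0.05, and 32 of the 50 were lower at 10 µM, against 41% of all genes, whose median was 0.04, and 18 were higher, against 58.6%. The largest differences were those of EIF4A2 (−0.43), EIF4B (−0.33), EIF3L (−0.32) and EIF4A1 (−0.30), and of EIF5A2 (0.27) on the other side. Of the 14 eIF3 genes, 13 were lower at 10 µM than at 5 µM. EIF3J was the exception, at 0.10. After rescaling to a common total, 26 of the 50 members were lower at 10 µM, with a median of −0.00, while the median of all genes moved to 0.07.

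Many genes of the translation machinery start with a 5′ terminal oligopyrimidine tract, a C followed by further C or T bases, through which mTORC1 and LARP1 control their translation and stability. The starts of the 9 measured members with a C and at least 4 more pyrimidines are shown because all 9 were lower at 10 µM than at 5 µM. Over all measured genes with such a start, 53.1% were lower. Each line gives the first 16 bases of the transcript (RefSeq, GRCh38.p14), with the tract in capitals. They lie, in the order of the lines, at chr3:186783577-186783592 (plus strand), chr12:53006456-53006471 (plus), chr11:7987337-7987352 (plus), chr19:38619188-38619203 (plus), chr3:150546787-150546802 (plus), chr22:36529151-36529166 (minus), chrX:24054956-24054971 (plus), chr11:32583831-32583846 (plus) and chr1:206612450-206612465 (minus).
EIF4A2: CTTTTCagtcgggcgc
EIF4B: CTTTTgcgttctcttt
EIF3F: CTTCTTTCTCgacaag
EIF3K: CTCTTCCTgttcccgt
EIF2A: CTCTTTCCgggacaac
EIF3D: CTCTTTTCCTggtttc
EIF2S3: CTCTTTTggcaacatg
EIF3M: CTTTTCCggtcggcgt
EIF2D: CCTTTTCgcggccggg
The lines run from the lowest to the highest difference between doses, from −0.43 for EIF4A2 to −0.07 for EIF2D. EIF3F was at 224, 239 and 207 FPKM, EIF3K at 278, 300 and 267 FPKM, EIF3D at 82.7, 92.6 and 84.3 FPKM and EIF3M at 183, 167 and 156 FPKM. Tract lengths run from 5 bases in EIF4B to 10 in EIF3D and EIF3F, and the 2 members with the lowest differences have the shortest tracts.

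The median difference between doses was −0.16 for these 9 members and −0.00 for the 32 members with another start, of which 16 were lower at 10 µM. Among measured genes with a RefSeq window, 7.79% have such a start. Over all genes the medians were −0.01 with a tract (715 genes, 53.1% lower) and 0.04 without (8465 genes, 39.8% lower). EIF3F, EIF3K, EIF3D and EIF3M, which are among the 9, belong to eIF3, where 13 of 14 genes were lower at 10 µM. Cytosolic ribosomal protein genes, the classical tract-bearing class, were lower at 10 µM whether their listed start had the tract (47 genes, median −0.17, 45 lower) or not (19 genes, median −0.18, 17 lower). The tract was looked for after the values were seen, and a RefSeq start can differ from the start used in these cells.

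**Figure D4:**
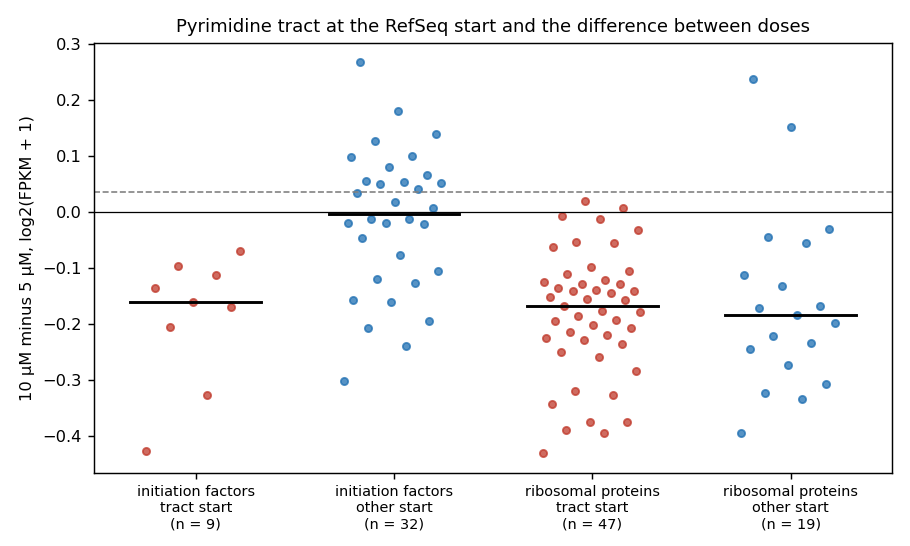
Difference between 10 µM and 5 µM BAS in log2(FPKM + 1) for initiation factor and ribosomal protein genes with or without a pyrimidine tract at the RefSeq start, with each point a gene, black bars the medians and the dashed line the median of all genes. All 9 initiation factor genes with the tract lie below 0, and ribosomal protein genes lie mostly below 0 in both classes.

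Longer transcripts tended to have lower differences from vehicle, and transcripts of higher GC content higher ones. Across genes, which are not independent, the Spearman correlation of transcript length with the difference was −0.41 at 5 µM and −0.23 at 10 µM over the 50 members, and −0.33 and −0.19 over 11363 matched genes. The Spearman correlation with GC content was 0.33 at 5 µM and 0.15 at 10 µM over the members. Over the matched genes it was 0.31 and 0.22. The points share the same libraries. The part of length and GC content in the results was not tested beyond the removal of trends given above.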

How the data were processed

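Total RNA of H446 cells was sequenced as single-end reads of 50 bases, per the labels' protocols. The submitters' processing notes name the build hg19 and the tools Cufflinks, Cuffdiff, Bowtie2, BWA and Trim Galore. Versions, roles and annotation: not given in the sources used here. Each deposited file lists FPKM made by the authors, per the file headers, in 16795 rows per library. The 2 symbols in more than 1 row were summed, and 0 of them are members. Per the file headers the treated columns are coded ASB85 and ASB810, so the doses rest on the labels.

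Differences of log2(FPKM + 1) were taken over the 11512 genes whose mean reached 1 FPKM. With 1 library per group there was no test. Calls used 2-fold and 1.5-fold limits, and lists are described by counts and medians beside those of all genes. The calling step was tested on simulated data without a pseudocount and with vehicle levels of at least 5 FPKM. That test does not cover the pseudocount of 1 or low genes. Members and lists were chosen with earlier results of these data known. Named were the kinases, the eIF4E inhibitors, members past 1.5-fold, the extremes of each role and up to 4 genes per list; further members, the neighbours and the start sequences were chosen after their values were seen. Ribosomal protein genes were taken by symbol. Length, GC content and sharing of 50-base sequences were read from GENCODE 29, using for each symbol its longest protein-coding transcript, and start sequences from RefSeq (GRCh38.p14). As alternatives, the pseudocount (0.1, 0.5), the filter (none, 5 FPKM), the fold limit and the scaling (median-ratio, common total, quantile) were changed, means were used and near-identical copies left out. A 1.25-fold limit and the removal of GC and length trends were added after seeing the data. So were the results on the cap group, tract starts, TATAA and snoRNA genes. Calculations used Python 3.11.15, numpy 2.4.6 and pandas 2.3.3.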

Additional observations from a re-analysis of the deposited data

How the results depend on the processing

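At the 2-fold limit, 0 members were called in each comparison under both other pseudocounts and without the filter on low values. So it was with the 3 scalings and with GC and length trends removed. A 4-fold limit, the filter at 5 FPKM and leaving out near-identical copies could only give 0 again, so they are no check of this count. At the 1.5-fold limit 2 were higher and 0 lower at 5 µM, and 2 higher and 3 lower at 10 µM. At a 1.25-fold limit, chosen after seeing the data, 4 were higher and 4 lower at 5 µM, 5 higher and 7 lower at 10 µM, and 2 lower between doses. At that limit median-ratio scaling gave 4 higher and 6 lower at 5 µM, 3 and 14 at 10 µM, and 4 lower between doses. With a pseudocount of 0.1 or 0.5, EIF2AK3 also passed the 1.5-fold limit at 10 µM, giving 3 higher; the same held with GC and length trends removed, where EIF3A was inside the limit and 2 were lower. After rescaling to a common total or quantile normalization EIF3A was past it at 5 µM as well, at −0.59, giving 1 lower. With quantile normalization 2 were lower at 10 µM, since EIF4A1 was at −0.54. The members' median at 5 µM was −0.00 with median-ratio scaling and −0.03 after rescaling to a common total, and at 10 µM it ran from −0.15 with median-ratio scaling to −0.03 with GC and length trends removed. EIF5A between doses was 0.06 with quantile normalization. The median of the members with a pyrimidine-tract start, between doses, ran from −0.19 to −0.12 over the alternatives. No paired analysis was possible because each group holds 1 library, which also leaves no replicate to leave out. Depth is unknown, so counting error cannot be given.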
